A study of Rattus norvegicus with 9 samples.

Results

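The potassium channel genes are the genes whose symbol begins with Kcn, which encode the pore-forming and auxiliary subunits of potassium channels. They were taken from an array study of primary rat Schwann cells, the glia of peripheral nerve, prepared from sciatic nerve. Of the 14213 genes with a probe set annotated to exactly 1 gene, 75 carried such a symbol, 31 of them with several probe sets. The measured value was the deposited array intensity, and levels are given throughout as log2(intensity + 1) of each gene's probe set with the highest mean. A difference between groups is given as a log2 fold change with its standard error.

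The study had 3 groups of 3 arrays, 1 array per culture, with total RNA taken 48 h after a transient transfection. The NF1 RNAi + U0126 cells received oligonucleotides against Nf1 together with U0126 (spelled UO126 in the labels), an inhibitor of the kinase MEK. The NF1 RNAi cells received the same oligonucleotides without the inhibitor, and the Control RNAi cells received scrambled ones. Nf1 encodes neurofibromin, which switches Ras off, and MEK acts below Ras in the cascade that activates ERK. Control RNAi cells treated with U0126 were not analysed here, so an effect of the inhibitor itself and a reversal of the NF1 RNAi effect cannot be told apart. The submitters describe the replicates as biological and independent, and the sources used here do not state the age, sex or strain of the rats.

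Potassium channels let potassium leave or enter a cell along its gradient and so set the resting potential. Voltage-gated alpha subunits open on depolarisation, inward rectifiers and tandem-pore channels carry current near rest, and calcium-activated channels open when intracellular calcium rises. Auxiliary subunits bind the pores and alter their gating or their delivery to the membrane. In Schwann cells, potassium currents are known to set the resting potential and have been linked to proliferation, and channels of the myelinating cell are thought to take up potassium released by axons.

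Nf1 itself read 5.44, 5.72 and 5.39 in NF1 RNAi + U0126 cells, 5.39, 5.41 and 5.44 in NF1 RNAi cells and 6.65, 6.59 and 6.15 in Control RNAi cells, with a log2 fold change of −1.05 ± 0.13 for NF1 RNAi against Control RNAi (limma, adjusted p = 0.000695). All 9 measured Schwann cell markers of a list of 12 reached log2 6 in at least 3 arrays, among them S100b and Sox10. At an adjusted p under 0.05 (limma), 1 of the 9 was higher and 4 lower in NF1 RNAi than in Control RNAi cells (median log2 fold change −0.65). In NF1 RNAi + U0126 cells 5 were lower than in NF1 RNAi cells (−0.38). Against Control RNAi cells, 1 was higher and 6 lower in NF1 RNAi + U0126 cells (−0.85). These were 55.6%, 55.6% and 77.8% of the 9, beside 26.3%, 13.7% and 35.5% of all genes. The summed intensity of the 9 ran from 28800 to 29600 in NF1 RNAi + U0126, 31500 to 33500 in NF1 RNAi and 29500 to 34700 in Control RNAi cells. Of the lists for other cell types, 6 of 10 fibroblast, 5 of 10 neuron, 3 of 10 macrophage and leukocyte, 3 of 8 endothelial and mural and 1 of 6 skeletal muscle genes reached log2 6 in at least 3 arrays. Dcn, Lum and Pdgfra of the fibroblast list, Rbfox3, Snap25 and Syt1 of the neuron list and Ptprc and Cd74 of the leukocyte list stayed below it on every array. The 6 fibroblast, 5 neuron and 3 macrophage and leukocyte genes counted above did reach it. The names therefore do not show that such cells were absent. The fibroblast list summed to 23100 to 31000 in NF1 RNAi + U0126, 30500 to 31600 in NF1 RNAi and 37200 to 39300 in Control RNAi cells, and 3 of its genes passed for NF1 RNAi against Control RNAi, 2 for NF1 RNAi + U0126 against NF1 RNAi and 5 for NF1 RNAi + U0126 against Control RNAi. These were 30.0%, 20.0% and 50.0% of the list. The neuron list summed to 7270 to 9120 in NF1 RNAi + U0126, 7770 to 11000 in NF1 RNAi and 10100 to 19700 in Control RNAi cells, with 5, 3 and 2 genes past the threshold in the same comparisons (50.0%, 30.0% and 20.0% of the list). For the macrophage and leukocyte list the sums ran from 570 to 638 in NF1 RNAi + U0126, 528 to 551 in NF1 RNAi and 469 to 510 in Control RNAi cells. Endothelial and mural genes summed to 525 to 647 in NF1 RNAi + U0126, 514 to 556 in NF1 RNAi and 567 to 733 in Control RNAi cells, and skeletal muscle genes to 2490 to 2890 in NF1 RNAi + U0126, 1560 to 2070 in NF1 RNAi and 1880 to 2030 in Control RNAi cells. Of the 8 endothelial and mural genes 1, 0 and 0 passed in these comparisons, and of the 6 skeletal muscle genes 0, 1 and 2. As a sign of RNA quality, the actin control read higher at its 3′ than at its 5′ end on the log2 scale, by 0.855, 0.857 and 0.874 in NF1 RNAi + U0126, 0.848, 0.785 and 0.835 in NF1 RNAi and 0.899, 0.624 and 0.605 in Control RNAi cells. Their part in the results below was not tested. In bulk RNA, fewer cells of a type and less RNA per cell cannot be told apart. Replicate 1 stood apart from the other arrays in each group, most of all in Control RNAi. The SD of log2 differences over genes was 0.32 and 0.37 for Control RNAi replicate 1, against 0.14 between the other pair. It was 0.21 and 0.25 against 0.15 in NF1 RNAi, and 0.23 and 0.27 against 0.16 in NF1 RNAi + U0126. The median intensity of the arrays ran from 94.6 to 96.7.

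Few potassium channel genes differed between the groups. At an adjusted p under 0.05, NF1 RNAi differed from Control RNAi cells in 5 of the 75 genes, against a background of 26.3% of all genes tested. NF1 RNAi + U0126 differed from NF1 RNAi cells in 5, against 13.7% of all genes, and from Control RNAi cells in 7, against 35.5% of all genes. As shares of the 75, these counts were 6.67%, 6.67% and 9.33%, each below the share of all genes. In all, 12 genes passed in at least 1 of the 3 comparisons and 63 in none. The 3 comparisons share arrays pairwise, so their calls are not independent of each other.

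The median absolute log2 fold change of the 75 genes was 0.10 for NF1 RNAi against Control RNAi, 0.08 for NF1 RNAi + U0126 against NF1 RNAi and 0.11 for NF1 RNAi + U0126 against Control RNAi. The same medians over all 14213 genes were 0.14, 0.11 and 0.18. Signed medians in the same order were 0.02, 0.06 and 0.10 for the potassium channel genes, beside 0.02, 0.02 and 0.04 for all genes. In the comparisons of NF1 RNAi + U0126 cells, the potassium channel genes thus leaned higher by more than all genes did. Their signed medians there lay near their median absolute changes of 0.08 and 0.11. What this lean comes from was not tested.

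**Figure D1:**
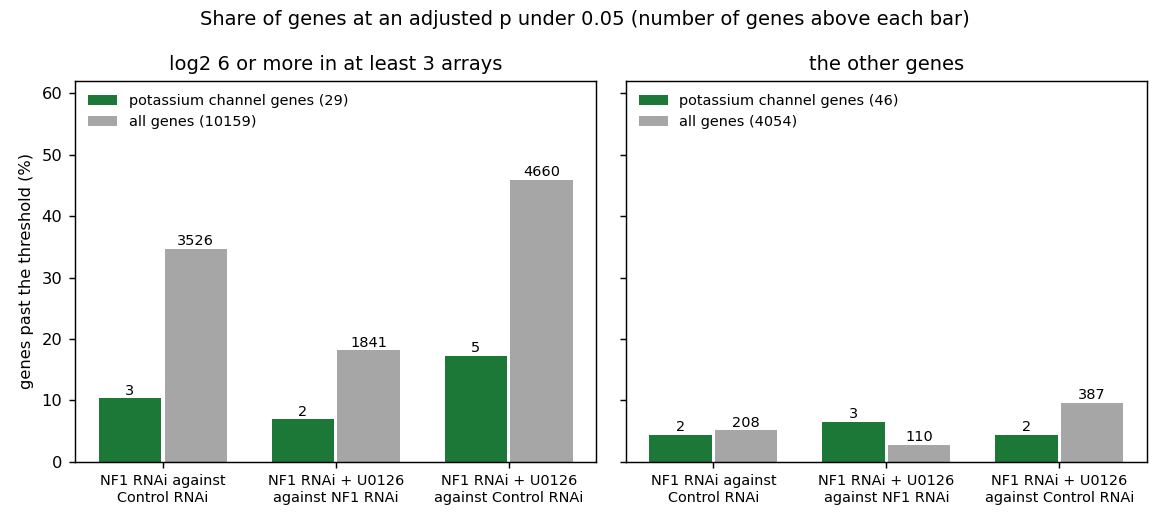
Share of genes past an adjusted p of 0.05 in each comparison (percent, vertical axis), for potassium channel genes (green) and all genes (grey), with the number of genes above each bar; the left panel holds genes at log2 6 or more in at least 3 arrays and the right panel the others. In the left panel 3, 2 and 5 of 29 potassium channel genes passed, against 34.7%, 18.1% and 45.9% of all such genes.

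A level of log2 6 or more in at least 3 arrays was reached by 29 of the 75 genes, by 22 of them on all 9 arrays and by 7 on 3 to 8 arrays. Of the other 46, 45 were under log2 6 on every array and 1 reached it on 1 or 2. The third-highest array stood at 6.02 for Kcnc2 and 6.04 for Kcnj3, the genes just inside the limit, and at 5.86 for Kcnh4 and 5.73 for Kcnq3, just outside. Of the 46, 2 passed for NF1 RNAi against Control RNAi, 3 for NF1 RNAi + U0126 against NF1 RNAi and 2 for NF1 RNAi + U0126 against Control RNAi, beside 5.13%, 2.71% and 9.55% of all genes under the limit. The limit was used to order the description. A gene under it may still be transcribed, since the level of a probe set depends on its probes as well as on the transcript, and levels of different genes are not compared here for the same reason.

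Among the voltage-gated alpha subunits, 10 of 31 genes reached the limit. Kcnd3, a pore subunit of A-type channels, which open briefly on depolarisation, averaged 8.80 ± 0.41 in NF1 RNAi + U0126, 9.81 ± 0.40 in NF1 RNAi and 9.29 ± 0.10 in Control RNAi cells (SD, n = 3 each). Kcnd1, its relative in the same channel class, averaged 6.40 ± 0.21 in NF1 RNAi + U0126, 6.62 ± 0.02 in NF1 RNAi and 7.09 ± 0.30 in Control RNAi cells. Both stood among the genes past the threshold and are described below. Kcnh3, an elk-type subunit, averaged 8.02 ± 0.12 in NF1 RNAi + U0126, 8.10 ± 0.10 in NF1 RNAi and 8.09 ± 0.15 in Control RNAi cells. The level of Kcnh2, the erg-type subunit known for repolarising heart muscle, was 6.71 ± 0.09 in NF1 RNAi + U0126, 6.59 ± 0.21 in NF1 RNAi and 6.49 ± 0.09 in Control RNAi cells, and that of its relative Kcnh6 was 6.17 ± 0.06 in NF1 RNAi + U0126, 6.04 ± 0.12 in NF1 RNAi and 6.06 ± 0.19 in Control RNAi cells. None of these erg- and elk-type genes passed in any comparison. Kcnc4, a subunit of the fast Shaw-type channels, had mean levels of 6.42 ± 0.18 in NF1 RNAi + U0126, 6.61 ± 0.12 in NF1 RNAi and 6.48 ± 0.07 in Control RNAi cells. Its relative Kcnc2 averaged 6.03 ± 0.08 in NF1 RNAi + U0126, 6.03 ± 0.16 in NF1 RNAi and 5.81 ± 0.14 in Control RNAi cells. Kcnq5, which contributes to the slow M-type current of neurons, averaged 6.48 ± 0.12 in NF1 RNAi + U0126, 6.43 ± 0.01 in NF1 RNAi and 6.34 ± 0.15 in Control RNAi cells. None of these 3 genes passed in any comparison. Kcna6, a Shaker-type subunit, had 6.39 ± 0.04 in NF1 RNAi + U0126, 6.32 ± 0.17 in NF1 RNAi and 6.36 ± 0.02 in Control RNAi cells. Kcng2, an electrically silent subunit that modifies other pores, had 6.30 ± 0.05 in NF1 RNAi + U0126, 6.23 ± 0.05 in NF1 RNAi and 6.21 ± 0.07 in Control RNAi cells. The 21 others lay between 3.83 and 5.99 on single arrays: Kcna1, Kcna2, Kcna3, Kcna4, Kcna5, Kcnb2, Kcnc1, Kcnd2, Kcng3, Kcnh1, Kcnh4, Kcnh5, Kcnh7, Kcnh8, Kcnq1, Kcnq3, Kcns1, Kcns2, Kcns3, Kcnv1 and Kcnv2.

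Auxiliary subunits held 13 genes, of which 6 reached log2 6 in at least 3 arrays. Kcnmb4, a beta subunit of large-conductance calcium-activated channels known from neurons, averaged 8.12 ± 0.26 in NF1 RNAi + U0126, 8.17 ± 0.18 in NF1 RNAi and 8.80 ± 0.19 in Control RNAi cells. Kcnip3, a calcium-binding partner of A-type channels also known as a transcriptional repressor, averaged 7.63 ± 0.02 in NF1 RNAi + U0126, 7.51 ± 0.08 in NF1 RNAi and 7.73 ± 0.05 in Control RNAi cells. Kcne4, a single-span inhibitory subunit, averaged 6.92 ± 0.04 in NF1 RNAi + U0126, 6.67 ± 0.21 in NF1 RNAi and 6.36 ± 0.19 in Control RNAi cells. Each of these passed in at least 1 comparison. Kcne3, a single-span subunit that keeps its partner pore open in epithelia, had 6.56 ± 0.09 in NF1 RNAi + U0126, 6.54 ± 0.07 in NF1 RNAi and 6.38 ± 0.07 in Control RNAi cells. Mean levels of the cytoplasmic beta subunits were 6.54 ± 0.19 in NF1 RNAi + U0126, 6.12 ± 0.15 in NF1 RNAi and 6.13 ± 0.06 in Control RNAi cells for Kcnab1, which passed, and 6.83 ± 0.22 in NF1 RNAi + U0126, 6.69 ± 0.14 in NF1 RNAi and 6.69 ± 0.02 in Control RNAi cells for Kcnab2, which did not. The other 7, Kcnab3, Kcne1, Kcne2, Kcnip1, Kcnip2, Kcnip4 and Kcnmb1, lay between 3.87 and 6.18 on single arrays.

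None of the 15 inward rectifier genes passed in any of the 3 comparisons by limma, and at an unadjusted p under 0.05 there were 1, 1 and 0 genes. With the replicate number as a block, Kcnj12, a rectifier of the classical strong type, passed for NF1 RNAi against Control RNAi at a log2 fold change of 0.38 (adjusted p = 0.0383, against 0.160 without the block). It read 5.89, 5.41 and 5.30 in NF1 RNAi and 5.23, 4.98 and 5.24 in Control RNAi cells, so that every NF1 RNAi array was above every Control RNAi array, 1 of them by little. Of the 15, 6 reached the limit. Kcnj11, the pore of the ATP-sensitive channel, averaged 6.79 ± 0.11 in NF1 RNAi + U0126, 6.80 ± 0.08 in NF1 RNAi and 6.79 ± 0.12 in Control RNAi cells. Of the G protein-gated subunits, Kcnj5 averaged 6.42 ± 0.06 in NF1 RNAi + U0126, 6.43 ± 0.13 in NF1 RNAi and 6.32 ± 0.12 in Control RNAi cells. Kcnj6 averaged 6.21 ± 0.14 in NF1 RNAi + U0126, 6.04 ± 0.10 in NF1 RNAi and 6.05 ± 0.04 in Control RNAi cells. The third of them, Kcnj3, had 6.07 ± 0.22 in NF1 RNAi + U0126, 5.84 ± 0.21 in NF1 RNAi and 5.78 ± 0.16 in Control RNAi cells. These subunits form the channel that opens when G protein-coupled receptors are bound. Kcnj14, a strong rectifier, had 6.31 ± 0.06 in NF1 RNAi + U0126, 6.30 ± 0.04 in NF1 RNAi and 6.29 ± 0.14 in Control RNAi cells. Kcnj13, a rectifier of epithelia with little dependence on outside potassium, had 6.12 ± 0.04 in NF1 RNAi + U0126, 5.91 ± 0.10 in NF1 RNAi and 6.04 ± 0.03 in Control RNAi cells. When only genes reaching the limit were tested, Kcnj13 passed for NF1 RNAi + U0126 against NF1 RNAi, as did 20.7% of all genes so filtered. Kcnj1, Kcnj2, Kcnj4, Kcnj8, Kcnj9, Kcnj10, Kcnj12, Kcnj15 and Kcnj16 lay between 3.55 and 5.89 on single arrays. Kcnj10 encodes the rectifier known for potassium uptake by glia of the brain.

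Of the 11 tandem-pore genes, which carry the background leak, 4 reached the limit. Kcnk2, a channel opened by stretch and lipids, averaged 8.11 ± 0.06 in NF1 RNAi + U0126, 7.97 ± 0.12 in NF1 RNAi and 8.09 ± 0.15 in Control RNAi cells. Kcnk3, closed by outside acid, averaged 7.04 ± 0.07 in NF1 RNAi + U0126, 6.84 ± 0.13 in NF1 RNAi and 6.87 ± 0.07 in Control RNAi cells. The alkali-activated Kcnk5 had 6.32 ± 0.03 in NF1 RNAi + U0126, 6.27 ± 0.04 in NF1 RNAi and 6.35 ± 0.14 in Control RNAi cells. No difference among these passed the threshold. Kcnk6 had 6.17 ± 0.19 in NF1 RNAi + U0126, 6.09 ± 0.02 in NF1 RNAi and 6.07 ± 0.17 in Control RNAi cells. Kcnk1, Kcnk4, Kcnk9, Kcnk10, Kcnk12, Kcnk13 and Kcnk15 lay between 4.12 and 5.67 on single arrays, and Kcnk1 alone of the 11 passed. Among the 5 calcium- and sodium-activated channel genes, Kcnn3 and Kcnn1, both small-conductance calcium-activated channels, averaged 7.54 ± 0.44 in NF1 RNAi + U0126, 6.86 ± 0.40 in NF1 RNAi and 6.24 ± 0.02 in Control RNAi cells for Kcnn3 and 7.83 ± 0.13 in NF1 RNAi + U0126, 7.71 ± 0.04 in NF1 RNAi and 7.52 ± 0.21 in Control RNAi cells for Kcnn1. Kcnt1, a sodium-activated channel, averaged 6.41 ± 0.04 in NF1 RNAi + U0126, 6.38 ± 0.19 in NF1 RNAi and 6.51 ± 0.06 in Control RNAi cells. Kcnma1, the pore of the large-conductance channel that Kcnmb4 serves, and Kcnn4 lay between 3.67 and 4.93.

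The 250 bases before the annotated start of 4 genes are shown, chosen after their values were seen. Kcnd3 and Kcnn3 had the largest fold changes among the 17 potassium channel calls described below, Kcna5 differed both with NF1 RNAi and with the inhibitor, and Kcnmb4 was lower in both NF1 RNAi groups than in Control RNAi cells. The stretches are those of Kcnd3 (GRCr8 chr2:195626066-195626315, plus strand), Kcnn3 (chr2:177234090-177234339, plus strand), Kcna5 (chr4:161043810-161044059, minus strand) and Kcnmb4 (chr7:54005102-54005351, minus strand). They come from RefSeq, run from 5′ to 3′ on the gene's strand, and have a GC box (GGGCGG on either strand) in capitals.
Kcnd3: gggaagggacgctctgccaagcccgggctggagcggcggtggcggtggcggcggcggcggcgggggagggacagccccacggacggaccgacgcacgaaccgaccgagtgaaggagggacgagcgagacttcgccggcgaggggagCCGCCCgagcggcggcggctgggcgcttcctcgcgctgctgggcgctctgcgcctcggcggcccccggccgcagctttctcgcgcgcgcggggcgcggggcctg
Kcnn3: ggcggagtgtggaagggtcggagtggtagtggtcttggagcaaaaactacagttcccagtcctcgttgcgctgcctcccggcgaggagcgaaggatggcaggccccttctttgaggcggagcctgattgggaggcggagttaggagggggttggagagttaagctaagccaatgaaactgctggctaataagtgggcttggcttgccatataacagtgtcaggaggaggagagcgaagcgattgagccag
Kcna5: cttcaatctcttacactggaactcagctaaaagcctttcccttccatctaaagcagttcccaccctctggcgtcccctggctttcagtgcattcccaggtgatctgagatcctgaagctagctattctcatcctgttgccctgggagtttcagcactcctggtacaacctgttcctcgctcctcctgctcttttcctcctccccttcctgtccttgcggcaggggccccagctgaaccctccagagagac
Kcnmb4: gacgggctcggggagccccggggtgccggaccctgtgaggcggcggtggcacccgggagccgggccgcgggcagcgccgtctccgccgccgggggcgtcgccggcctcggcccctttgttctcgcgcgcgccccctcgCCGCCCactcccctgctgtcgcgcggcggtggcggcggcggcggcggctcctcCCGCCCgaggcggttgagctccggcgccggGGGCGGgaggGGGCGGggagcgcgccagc

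Promoters matched 52 of the 75 genes, with 58 entries in all. The Kcnmb4 stretch held 4 GC boxes and the Kcnd3 stretch 1, and their GC content was 84.4% and 79.6%. Neither the Kcnn3 nor the Kcna5 stretch held one, at 57.2% and 54.8% GC. A GC box stood in 32 of the 58 potassium channel promoters (55.2%) and in 30.5% of all 33469 promoters. The AP-1 motif (TGANTCA) stood in 2 of the 58 and in 6.34% of all. The TATA box (TATAAA) stood in 2 of the 58 and in 12.9% of all. Neither the cyclic AMP response element (TGACGTCA, 1.59% of all) nor the ETS motif (CCGGAAGT, 3.10% of all) was among the letters of the 58. Both strands were searched, and no motif holds another. Such matches describe letters and not bound sites.

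Comparing NF1 RNAi with Control RNAi cells asks which channel genes differed when Nf1 was knocked down. Of the 75 genes, 2 were higher (Kcna5 and Kcnk1) and 3 lower (Kcnd1, Kcnip3 and Kcnmb4), where 13.0% of all genes were higher and 13.3% lower. Kcna5 encodes a delayed rectifier pore known from Schwann cells. It read 5.47, 5.34 and 5.29 in NF1 RNAi cells, against 4.65, 4.78 and 4.80 in Control RNAi cells. Every NF1 RNAi array was above every Control RNAi array, and the log2 fold change was 0.62 ± 0.07 (limma, adjusted p = 0.000451). Its levels stayed under log2 6 on all 9 arrays.

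Kcnmb4 read 7.96, 8.31 and 8.23 in NF1 RNAi cells, against 8.62, 8.79 and 8.999 in Control RNAi cells. The groups did not overlap, and the log2 fold change of −0.64 ± 0.15 passed (limma, adjusted p = 0.0138), though not without NF1 RNAi replicate 1 (adjusted p = 0.051). Kcnd1 read 6.61, 6.63 and 6.60 in NF1 RNAi cells, against 7.33, 6.75 and 7.19 in Control RNAi cells. Here Control RNAi replicate 2 lay close to the NF1 RNAi arrays and the other Control RNAi arrays well above them, with a log2 fold change of −0.47 ± 0.15 (adjusted p = 0.0442). Kcnip3 read 7.59, 7.48 and 7.44 in NF1 RNAi cells, against 7.78, 7.67 and 7.74 in Control RNAi cells. This difference of −0.22 ± 0.06 (adjusted p = 0.0246) was small and without overlap, and the gene's second probe set pointed the other way, at 0.22 ± 0.08 (adjusted p over all probe sets 0.084). Kcnk1, a weakly conducting tandem-pore subunit, read 5.26, 5.24 and 5.24 in NF1 RNAi cells, against 5.06, 4.999 and 5.02 in Control RNAi cells. Every NF1 RNAi array was higher, and the difference was 0.22 ± 0.07 (adjusted p = 0.0474).

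Several genes missed the threshold in this comparison and passed once the replicate number was a block, which raised the count to 12 (8 higher and 4 lower), against 32.0% of all genes. Kcnd3 read 10.25, 9.70 and 9.48 in NF1 RNAi cells, against 9.25, 9.41 and 9.22 in Control RNAi cells. All NF1 RNAi arrays were higher, replicate 1 most of all, and the difference of 0.52 ± 0.23 had an adjusted p of 0.139 without and 0.0453 with the block (limma). Kcnn3 read 7.31, 6.60 and 6.66 in NF1 RNAi cells, against 6.22, 6.26 and 6.25 in Control RNAi cells. Replicate 1 was again the highest NF1 RNAi array, and the difference of 0.61 ± 0.23 had adjusted p-values of 0.0890 and 0.0242, without and with the block. Besides Kcnj12, the other 4 were Kcna3 (0.23, blocked adjusted p = 0.0290), Kcna4 (−0.41, 0.0229), Kcne4 (0.31, 0.0434) and Kcnip4 (0.28, 0.0385).

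Of the 70 genes not past the threshold for NF1 RNAi against Control RNAi, 63 had a 95% interval of the log2 fold change within 0.5 of no change. The 7 whose interval reached further were Kcna4, Kcnd3, Kcne1, Kcne4, Kcnip4, Kcnj12 and Kcnn3. The split of 2 higher and 3 lower was 4 higher and 1 lower after centring each array on its median (28.8% of all genes passed) and after quantile normalization (27.7% of all genes), with Kcnd1 and Kcnip3 no longer past the threshold. Only Kcna5 passed in each fit that left out 1 array. Kcnd1 and Kcnk1 each failed without any single array of NF1 RNAi and without Control RNAi replicate 1 or 3, Kcnd1 also without NF1 RNAi + U0126 replicate 2 or 3, and Kcnk1 also without NF1 RNAi + U0126 replicate 1 or Control RNAi replicate 2 (adjusted p up to 0.119 and 0.130). Kcnip3 failed without NF1 RNAi replicate 2 or 3 or Control RNAi replicate 1 or 3 (up to 0.0815). The count of 5 became 2 without Control RNAi replicate 3 or NF1 RNAi replicate 2, and 3 without Control RNAi replicate 1 or NF1 RNAi replicate 1 or 3. In those fits, in the order named, 24.1%, 19.8%, 25.4%, 19.6% and 20.9% of all genes passed, against 26.3% with every array.

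**Figure D2:**
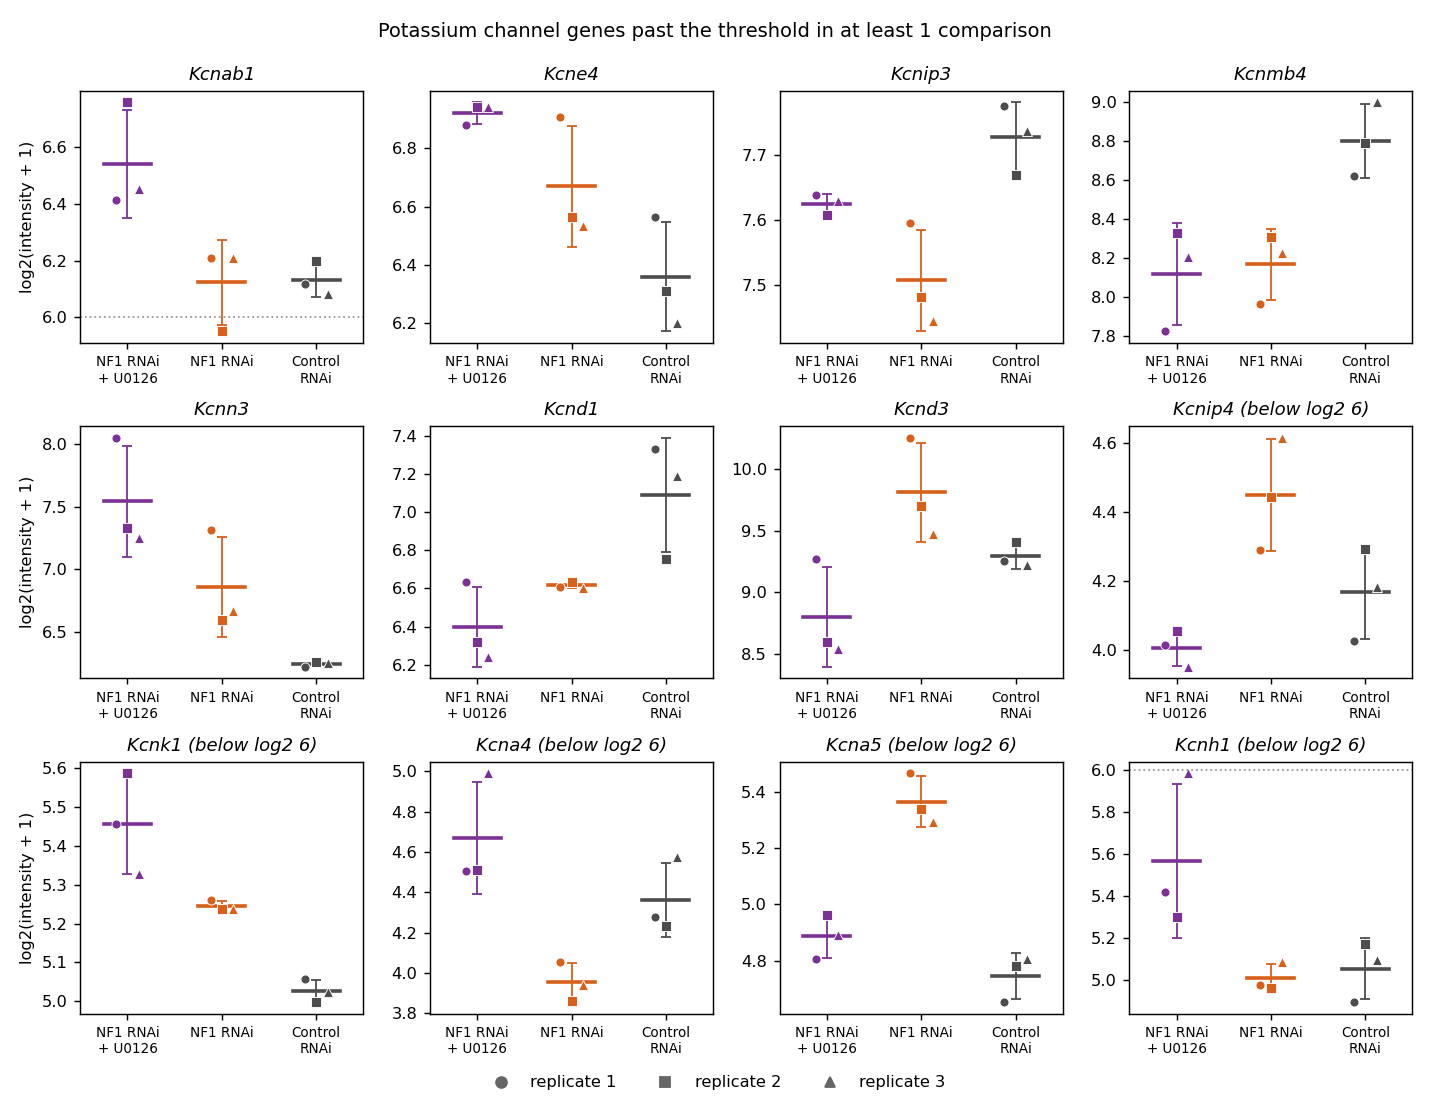
Level of the 12 potassium channel genes past the threshold in at least 1 comparison, as log2(intensity + 1) on the vertical axis, with 1 point per array, a line at each group mean, a bar of 1 SD to each side and a dotted line at log2 6 where in view, for NF1 RNAi + U0126, NF1 RNAi and Control RNAi cells from left to right. Kcna5 is high in the 3 NF1 RNAi arrays (5.29 to 5.47), and Kcnmb4 is high in the 3 Control RNAi arrays (8.62 to 8.999).

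Comparing NF1 RNAi + U0126 with NF1 RNAi cells asks what the MEK inhibitor changed in cells with Nf1 knocked down. Higher with the inhibitor were Kcna4 and Kcnab1, and lower were Kcna5, Kcnd3 and Kcnip4, that is 2 and 3 of 75, where 6.71% of all genes were higher and 7.02% lower. Kcnd3 showed the largest fold change of these. It read 9.27, 8.60 and 8.54 in NF1 RNAi + U0126 cells, against 10.25, 9.70 and 9.48 in NF1 RNAi cells. The groups did not overlap, replicate 1 was the highest array in both, and the log2 fold change of −1.01 ± 0.23, a level 0.498 times that without inhibitor, passed (limma, adjusted p = 0.0202). Between same-numbered arrays the differences were −0.98, −1.10 and −0.93.

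Kcna5 read 4.81, 4.96 and 4.89 in NF1 RNAi + U0126 cells, against 5.47, 5.34 and 5.29 in NF1 RNAi cells. The inhibitor-treated arrays were all lower, at −0.48 ± 0.07 (limma, adjusted p = 0.00328). Kcna4, a rapidly inactivating Shaker-type pore, read 4.51, 4.51 and 4.99 in NF1 RNAi + U0126 cells, against 4.06, 3.86 and 3.94 in NF1 RNAi cells. All inhibitor-treated arrays were higher, replicate 3 most of all, with a log2 fold change of 0.71 ± 0.14 (adjusted p = 0.0112). Kcnip4, a calcium-binding partner of A-type channels, read 4.02, 4.06 and 3.95 in NF1 RNAi + U0126 cells, against 4.29, 4.44 and 4.62 in NF1 RNAi cells. It was lower without overlap, at −0.44 ± 0.10 (adjusted p = 0.0167), and its second probe set gave −0.16 ± 0.12 (adjusted p over all probe sets 0.511).

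Kcnab1, the beta subunit that speeds inactivation of Shaker-type channels, read 6.41, 6.76 and 6.45 in NF1 RNAi + U0126 cells, against 6.21, 5.95 and 6.21 in NF1 RNAi cells. The groups stayed apart, and the difference of 0.42 ± 0.11 passed (limma, adjusted p = 0.0327). Its second probe set read 6.26, 5.67 and 6.20 in NF1 RNAi + U0126, 4.44, 4.44 and 4.32 in NF1 RNAi and 3.55, 4.16 and 4.33 in Control RNAi cells. That probe set differed in the same direction and by more, at 1.64 ± 0.21 against NF1 RNAi and 2.03 ± 0.21 against Control RNAi cells (limma over all probe sets, adjusted p = 0.00136 and 0.000124). For Kcnd3 the second probe set read 8.78, 8.03 and 7.95 in NF1 RNAi + U0126, 9.85, 9.30 and 9.08 in NF1 RNAi and 8.84, 8.81 and 8.58 in Control RNAi cells. It differed in the same direction as the first, at −1.16 ± 0.24 for NF1 RNAi + U0126 against NF1 RNAi (adjusted p = 0.0165). The third, at 5.67 to 6.19 on the single arrays of these groups, did not pass, at −0.10 ± 0.14 (adjusted p = 0.742).

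**Figure D3:**
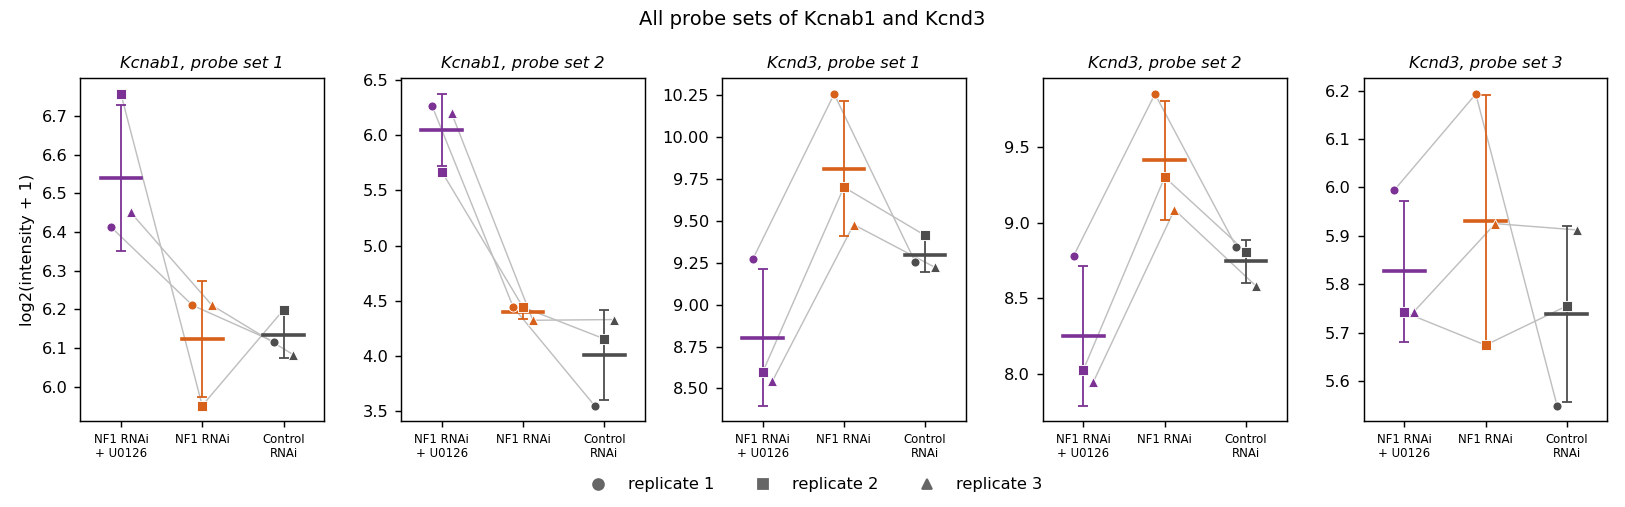
Levels of every probe set of Kcnab1 and Kcnd3 as log2(intensity + 1) on the vertical axis, 1 point per array, a line at each group mean with a bar of 1 SD to each side, and grey lines joining same-numbered arrays, for NF1 RNAi + U0126, NF1 RNAi and Control RNAi cells from left to right. Both Kcnab1 probe sets are higher in NF1 RNAi + U0126 cells, the second by 1.64 over NF1 RNAi cells, and the first and second Kcnd3 probe sets are high in NF1 RNAi cells, while the third did not pass.

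With the replicate block the count rose to 7, against 19.6% of all genes, by Kcnh1 and Kcnn3. Kcnh1, an eag-type pore linked to cell proliferation, read 5.42, 5.30 and 5.99 in NF1 RNAi + U0126 cells, against 4.97, 4.96 and 5.08 in NF1 RNAi cells. All inhibitor-treated arrays were higher, by 0.56 ± 0.16, with an adjusted p of 0.0513 without and 0.0255 with the block (limma). Kcnn3 read 8.05, 7.33 and 7.25 in NF1 RNAi + U0126 cells, against 7.31, 6.60 and 6.66 in NF1 RNAi cells. NF1 RNAi replicate 1 overlapped the treated arrays, while the differences between same-numbered arrays were 0.74, 0.73 and 0.58. The fold change of 0.68 ± 0.23 had adjusted p-values of 0.0919 and 0.0246, without and with the block.

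Of the 70 genes not past the threshold here, 63 had a 95% interval within 0.5 of no change, and the wider ones were Kcnd1, Kcne4, Kcnh1, Kcnj12, Kcnj3, Kcnn3 and Kcns3. Kcna5 alone passed in every fit that left out 1 array, since Kcnd3 failed without NF1 RNAi replicate 1 or 2 or NF1 RNAi + U0126 replicate 2 or 3 (adjusted p up to 0.079), Kcna4 without NF1 RNAi replicate 2 (0.052), Kcnip4 without NF1 RNAi replicate 2 or 3 or NF1 RNAi + U0126 replicate 3 (up to 0.059), and Kcnab1 without NF1 RNAi + U0126 replicate 2 or 3, any single NF1 RNAi array or Control RNAi replicate 2 (up to 0.117). The count became 1 without NF1 RNAi replicate 2 and 3 without NF1 RNAi + U0126 replicate 3. In those fits 7.81% and 9.75% of all genes passed, against 13.7% with every array.

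Comparing NF1 RNAi + U0126 with Control RNAi cells gives the combined difference. Higher were Kcnab1, Kcne4, Kcnh1, Kcnk1 and Kcnn3, and lower were Kcnd1 and Kcnmb4, that is 5 and 2 of 75, where 17.9% of all genes were higher and 17.6% lower. Kcnn3, the small-conductance channel that couples calcium to potassium efflux, read 8.05, 7.33 and 7.25 in NF1 RNAi + U0126 cells, against 6.22, 6.26 and 6.25 in Control RNAi cells. Every treated array was above every Control RNAi array, the Control RNAi arrays lay within a narrow range, and replicate 1 was the highest treated array. The log2 fold change of 1.30 ± 0.23, a level 2.46 times that of Control RNAi cells, passed (limma, adjusted p = 0.00248). Of the 17 potassium channel calls in the 3 comparisons, that of Kcnn3 was the only one kept under all 23 alternative settings, which include a 2-fold limit. Both Kcna5 calls, and those of Kcnd1, Kcne4, Kcnk1 and Kcnmb4 in this comparison, were lost under that limit alone. Genes under log2 6 were not part of the filtered setting. For Kcnn3, NF1 RNAi cells lay between, as the group means of 7.54 in NF1 RNAi + U0126, 6.86 in NF1 RNAi and 6.24 in Control RNAi cells show.

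Kcne4 read 6.88, 6.94 and 6.94 in NF1 RNAi + U0126 cells, against 6.57, 6.31 and 6.20 in Control RNAi cells. The groups were apart, at 0.56 ± 0.12 (limma, adjusted p = 0.00552). Kcnk1 read 5.46, 5.59 and 5.33 in NF1 RNAi + U0126 cells, against 5.06, 4.999 and 5.02 in Control RNAi cells. It was higher in every treated array, by 0.43 ± 0.07 (adjusted p = 0.00137), with NF1 RNAi cells between at 5.26, 5.24 and 5.24. Kcnh1 read 5.42, 5.30 and 5.99 in NF1 RNAi + U0126 cells, against 4.89, 5.17 and 5.09 in Control RNAi cells. Replicate 3 stood above the other treated arrays, and the difference of 0.51 ± 0.16 had an adjusted p of 0.0351. Kcnab1 read 6.41, 6.76 and 6.45 in NF1 RNAi + U0126 cells, against 6.12, 6.20 and 6.08 in Control RNAi cells, a difference of 0.41 ± 0.11 (adjusted p = 0.0160) without overlap.

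On the lower side, Kcnd1 read 6.63, 6.32 and 6.24 in NF1 RNAi + U0126 cells, against 7.33, 6.75 and 7.19 in Control RNAi cells. The treated arrays were all lower, at −0.69 ± 0.15 (limma, adjusted p = 0.00609). Kcnmb4 read 7.82, 8.33 and 8.20 in NF1 RNAi + U0126 cells, against 8.62, 8.79 and 8.999 in Control RNAi cells. Its difference of −0.68 ± 0.15 (adjusted p = 0.00694) had no overlap, and against NF1 RNAi cells the inhibitor-treated cells gave −0.05 ± 0.15 (adjusted p = 0.884). Kcnd3, lower with the inhibitor than in NF1 RNAi cells, did not pass against Control RNAi cells at −0.49 ± 0.23 (adjusted p = 0.130, or 0.0442 with the replicate block). NF1 RNAi + U0126 replicate 1 lay among the Control RNAi arrays and the other treated arrays below them. With the block 9 genes passed, against 40.8% of all genes. Kcnn1 also passed with the block, at 0.31 ± 0.11 (adjusted p = 0.0524 without and 0.0181 with it). Kcna5, at 0.14 ± 0.07 (adjusted p = 0.168), did not pass.

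Of the 68 genes not past the threshold against Control RNAi, 63 had a 95% interval within 0.5 of no change, the others being Kcna4, Kcnd3, Kcne1, Kcnj3 and Kcnn1. The split of 5 higher and 2 lower became 14 and 2 after median centring (16 in all, against 40.7% of all genes), and 7 and 2 after quantile normalization (9 in all, against 37.3% of all genes). Kcnd1, Kcne4, Kcnk1, Kcnmb4 and Kcnn3 passed in every fit that left out 1 array. Kcnh1 failed without any single Control RNAi array or NF1 RNAi replicate 2 or 3 (adjusted p up to 0.089), and Kcnab1 without Control RNAi replicate 3 (0.0502).

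**Figure D4:**
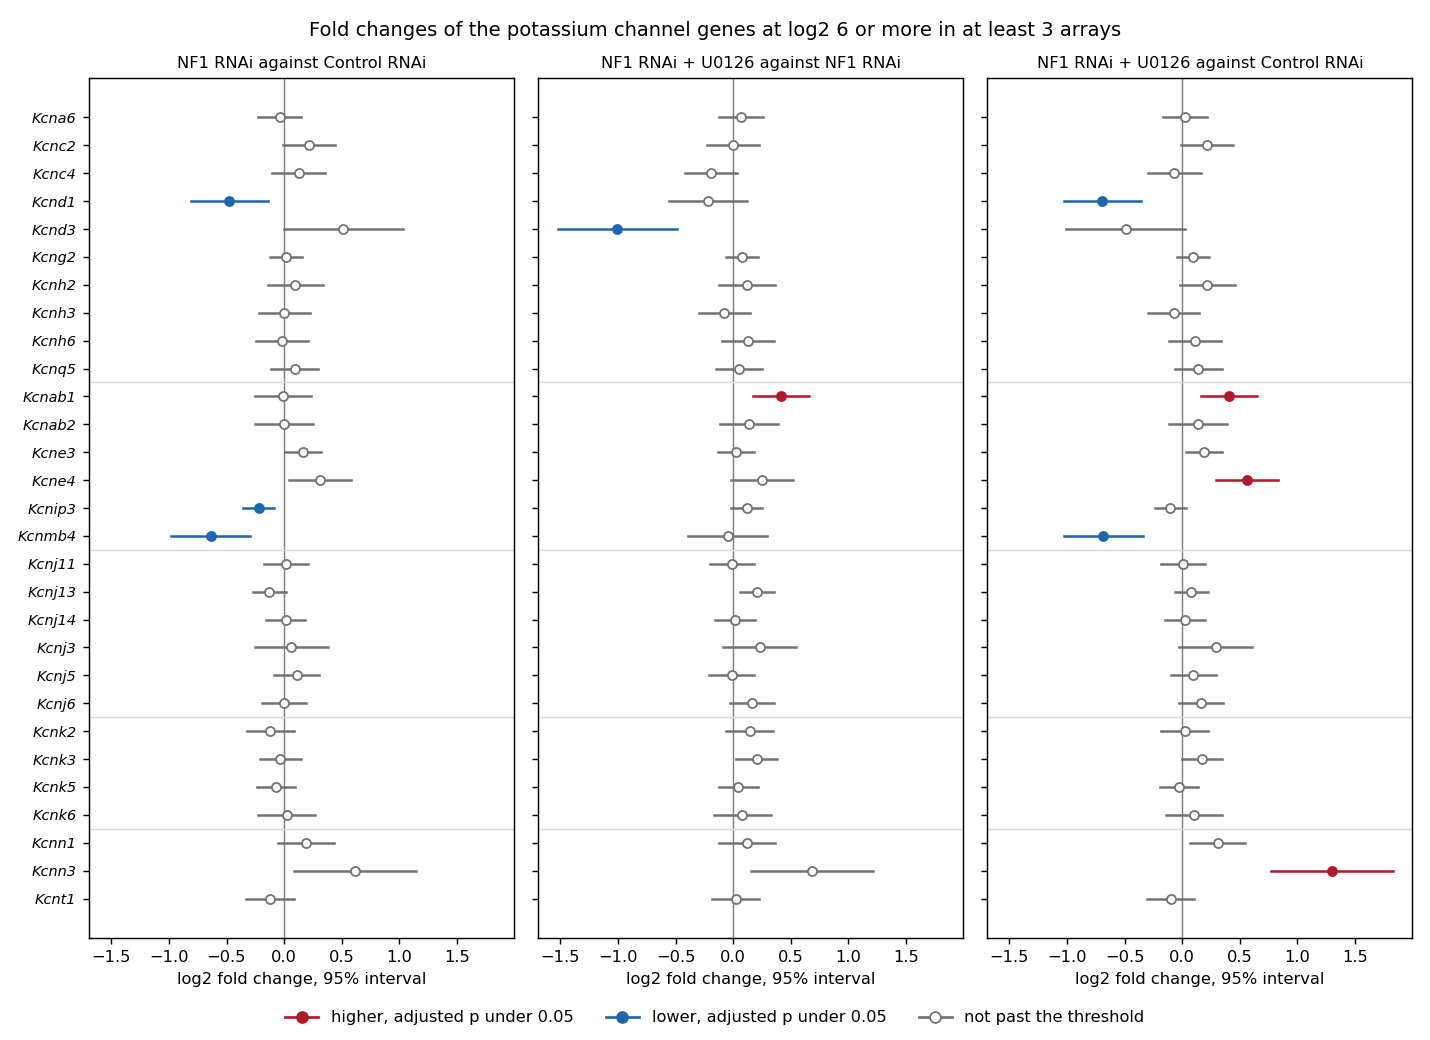
Log2 fold change (horizontal axis) with its 95% interval for the 29 potassium channel genes at log2 6 or more in at least 3 arrays, 1 row per gene grouped by family and 1 panel per comparison, with red for higher, blue for lower and open grey for not past the threshold. Most intervals are centred near 0, and Kcnn3 at 1.30 in the right panel and Kcnd3 at −1.01 in the middle panel lie farthest out.

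A list drawn up for partner proteins of voltage-gated channels, which also holds the secreted Lgi4 and the repressor Rest, had 17 of 18 members measured. Membership does not mean that a protein acts on a channel. Of these, 2 were higher and 2 lower in NF1 RNAi than in Control RNAi cells, 2 were lower in NF1 RNAi + U0126 than in NF1 RNAi cells, and 3 were higher and 4 lower in NF1 RNAi + U0126 than in Control RNAi cells, with median log2 fold changes of 0.07, 0.01 and 0.15. These were 23.5%, 11.8% and 41.2% of the list, beside 26.3%, 13.7% and 35.5% of all genes. Lgi4, a protein secreted by Schwann cells that is needed for peripheral myelination, read 6.44, 6.74 and 6.82 in NF1 RNAi + U0126, 8.87, 9.81 and 9.73 in NF1 RNAi and 10.67, 10.66 and 10.61 in Control RNAi cells. No 2 groups overlapped. The log2 fold change was −1.17 ± 0.22 for NF1 RNAi against Control RNAi, −2.81 ± 0.22 for NF1 RNAi + U0126 against NF1 RNAi and −3.98 ± 0.22 for NF1 RNAi + U0126 against Control RNAi (limma, adjusted p = 0.00475, 0.000155 and 6.08e-06).

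Epb41l3, a membrane scaffold of axon and glia contacts, read 8.89, 9.11 and 8.88 in NF1 RNAi cells, against 10.21, 9.97 and 9.97 in Control RNAi cells. It was lower at −1.09 ± 0.09 (limma, adjusted p = 8.13e-05), and −1.05 ± 0.09 in NF1 RNAi + U0126 against Control RNAi cells (adjusted p = 4.21e-05). Dlg1, a scaffold that clusters Shaker-type channels, was higher in NF1 RNAi than in Control RNAi cells by 0.41 ± 0.05 (adjusted p = 0.000665), as was Rest, a repressor of neuronal genes, by 0.48 ± 0.13 (adjusted p = 0.0292). Adam23, a receptor for the Lgi proteins, was lower in NF1 RNAi + U0126 than in NF1 RNAi cells, at −0.95 ± 0.26 (adjusted p = 0.0447), and at −1.60 ± 0.26 against Control RNAi cells (adjusted p = 0.00147). Cntnap2, which holds Shaker-type channels beside the node of Ranvier, was higher in NF1 RNAi + U0126 than in Control RNAi cells by 0.64 ± 0.11 (adjusted p = 0.00211). It did not reach log2 6 in at least 3 arrays. The call of Rest was lost without any single NF1 RNAi array (adjusted p up to 0.088), and that of Adam23 against NF1 RNAi cells without NF1 RNAi + U0126 replicate 2 or 3, any single NF1 RNAi array or Control RNAi replicate 2 or 3 (up to 0.149). With the replicate block 6 of the 17 genes, in place of 4, passed for NF1 RNAi against Control RNAi (adding Adam23 and Cntnap2), 4, in place of 2, for NF1 RNAi + U0126 against NF1 RNAi (adding Ank2 and Cntnap2) and 8, in place of 7, for NF1 RNAi + U0126 against Control RNAi (adding Rest). Of all genes, 32.0%, 19.6% and 40.8% passed with the block, in place of 26.3%, 13.7% and 35.5%.

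Potassium pumps and cotransporters, 18 of 22 measured, gave 1 higher and 3 lower in NF1 RNAi than in Control RNAi cells, 2 lower in NF1 RNAi + U0126 than in NF1 RNAi cells, and 2 higher and 6 lower in NF1 RNAi + U0126 than in Control RNAi cells. These were 22.2%, 11.1% and 44.4% of the list, beside the same 26.3%, 13.7% and 35.5% of all genes, and the median log2 fold changes were −0.06, −0.02 and 0.06. The FXYD proteins, small regulators of the sodium and potassium pump, led the falls. Fxyd1 read 7.81, 7.60 and 7.55 in NF1 RNAi + U0126, 8.18, 8.58 and 8.28 in NF1 RNAi and 9.55, 9.72 and 9.55 in Control RNAi cells. It was lower in NF1 RNAi against Control RNAi cells, at −1.26 ± 0.11, and in NF1 RNAi + U0126 against NF1 RNAi cells, at −0.69 ± 0.11 (limma, adjusted p = 0.000124 and 0.00459). Fxyd6 fell by 1.64 in NF1 RNAi against Control RNAi cells (adjusted p = 0.00355). Fxyd5 fell by 1.43 in NF1 RNAi + U0126 against NF1 RNAi cells (adjusted p = 0.000947). Slc12a4, a potassium and chloride cotransporter, fell by 0.61 in NF1 RNAi against Control RNAi cells (adjusted p = 0.000283), and Atp1b3, a beta subunit of the pump, was higher by 0.36 ± 0.09 (adjusted p = 0.0182, up to 0.068 without Control RNAi replicate 2 or NF1 RNAi replicate 3). Against Control RNAi cells, NF1 RNAi + U0126 cells gave −2.02 ± 0.29 for Fxyd6, −1.96 ± 0.11 for Fxyd1, −1.80 ± 0.17 for Fxyd5 and −0.70 ± 0.07 for Slc12a4, with adjusted p-values of 0.000725, 7.63e-06, 7.77e-05 and 6.93e-05. The replicate block added Fxyd5 for NF1 RNAi against Control RNAi and Slc12a2 for NF1 RNAi + U0126 against NF1 RNAi. With the block 32.0% and 19.6% of all genes passed in these comparisons.

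Among other cation channels, 3 of 12 voltage-gated sodium channel genes were lower in NF1 RNAi than in Control RNAi cells, a share near the 26.3% of all genes that passed. Scn7a, an atypical sodium channel found in glia, read 9.25, 9.44 and 9.04 in NF1 RNAi + U0126, 8.93, 9.62 and 9.29 in NF1 RNAi and 10.35, 11.30 and 11.27 in Control RNAi cells. Every NF1 RNAi array was below every Control RNAi array, at −1.70 ± 0.26 (limma, adjusted p = 0.00185), beside −0.29 ± 0.05 for Scn9a (0.00455) and −0.20 ± 0.06 for Scn11a (0.0344, up to 0.117 with 1 array left out). Scn3a, a sodium channel of embryonic neurons, was the only one past the threshold for NF1 RNAi + U0126 against NF1 RNAi cells, higher by 1.21 ± 0.14 (adjusted p = 0.000940), where 13.7% of all genes passed. With the replicate block Scn1a passed as well, there and for NF1 RNAi + U0126 against Control RNAi. Of 21 calcium channel genes, Cacna1c, the pore of the cardiac L-type channel, was lower in NF1 RNAi than in Control RNAi cells at −0.95 ± 0.13 (adjusted p = 0.000977). It alone passed there, 4.76% of the 21 beside 26.3% of all genes. None of the 21 passed for NF1 RNAi + U0126 against NF1 RNAi (4 at an unadjusted p under 0.05), and against Control RNAi cells NF1 RNAi + U0126 cells gave −0.61 ± 0.13 for Cacna1c and 0.26 ± 0.06 for Cacna1b (adjusted p = 0.00609 and 0.0122), which is 9.52% of the 21 beside 35.5% of all genes. With the replicate block 2 calcium channel genes passed for NF1 RNAi against Control RNAi (adding Cacna2d1), 1 for NF1 RNAi + U0126 against NF1 RNAi (Cacnb2) and 5 for NF1 RNAi + U0126 against Control RNAi (adding Cacna2d1, Cacnb2 and Cacnb3). The block also raised the share of all genes that passed, to 32.0%, 19.6% and 40.8% in the same order. Against Control RNAi, Scn7a at −1.73 ± 0.26, Scn3a at 0.99 ± 0.14 and Scn9a at −0.21 ± 0.05 passed in NF1 RNAi + U0126 cells (adjusted p = 0.000973, 0.000779 and 0.0158). This Scn9a call was lost without Control RNAi replicate 2 or NF1 RNAi + U0126 replicate 2 (adjusted p up to 0.0625), and after median centring. Scn3a, Scn9a and Cacna1b did not reach log2 6 in at least 3 arrays. Of 8 HCN and cyclic nucleotide-gated channel genes, relatives of the voltage-gated potassium channels, Cnga2 alone passed. It did so at 0.23 ± 0.06 for NF1 RNAi + U0126 against Control RNAi (adjusted p = 0.0168), where 35.5% of all genes passed. The Cnga2 call was lost without NF1 RNAi + U0126 replicate 1 or 3 (adjusted p up to 0.0586). It was also lost without all replicate 1 arrays. None of 5 measured partners of ATP-sensitive and large-conductance channels passed in any comparison (limma, with 1, 0 and 0 at an unadjusted p under 0.05), although Calm2 did with the replicate block for NF1 RNAi against Control RNAi.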

How the data were processed

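Total RNA from 9 cultures was hybridised to Affymetrix rat arrays, 1 per culture. The authors deposited 1 linear intensity per probe set and array, summarised with RMA per the submitters' processing notes, with no version given in the sources used here. Precision rests on the number of arrays. From these intensities log2(value + 1) was taken, a scale that understates changes of dim probe sets.

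Of 31099 probe sets, 57 controls were left out. Of the other 31042, the platform annotation lists a single gene for 20826, more than 1 gene for 436, and no gene for 9780. Symbols were updated through the gene ID (20758 probe sets), accession (2) or older symbol (62) with RefSeq's GRCr8 gene table, and 4 were kept. The brightest probe set, by mean over the arrays, stood for each of 14213 genes, and 4526 genes, 31 of them potassium channel genes, had several. RefSeq lists 95 protein-coding Kcn symbols. Those without such a probe set were not analysed here.

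The test was limma's (version 3.58.1, R 4.3.3) with lmFit and eBayes (group means over 9 arrays, 6 residual degrees of freedom, Benjamini-Hochberg over all 14213 genes, adjusted p under 0.05, no fold limit). The fit was tested on simulated data. Genes named were those at log2 6 or more in at least 3 arrays, those past the threshold in any comparison, Nf1, and up to 4 passing members per partner list and comparison with the largest fold changes. The members and lists were chosen with earlier results of these data known. The alternatives tried were the replicate block, a filter on low values, other scalings, variance models, array weights, pseudocounts, thresholds and probe set rules, and leaving out arrays. Tables and figures were made with pandas 2.3.3 and matplotlib 3.10.9 in Python 3.11.15.

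What arrays of the same replicate number share is not stated in the labels. Array deviations from group means correlated across genes in all 9 same-numbered pairs (r from 0.17 to 0.62), against −0.52 to 0.40 for different numbers, and 5 of 9 arrays correlated best with their own number. These values set replicate 1 apart but do not tell 2 from 3. Control RNAi replicate 2 correlated better with NF1 RNAi replicate 3 (0.23) than with replicate 2 (0.17). NF1 RNAi replicate 3 did so with NF1 RNAi + U0126 replicate 2 (0.40, against 0.34 for replicate 3). Whether the number pairs the arrays is thus not settled. A blocked fit (4 residual degrees of freedom) is given as an alternative where it changes the call of a potassium channel gene or of a gene in the partner lists. Genes named for a blocked call alone were chosen after their values were seen.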

Additional observations from a re-analysis of the deposited data

How the results depend on the processing

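Of 384 recomputed values of the 17 potassium channel calls, 301 kept direction and call, 82 lost the call and 1 changed sign. That one was Kcnip3 for NF1 RNAi against Control RNAi with the mean of its probe sets, at 0.00056 (adjusted p = 0.997), where its 2 probe sets pointed opposite ways. With the replicate block the count for NF1 RNAi against Control RNAi was 12, in place of 5, and for the other comparisons 7 and 9. Apart from the genes named with a blocked value in the report, the block changed no other call of a potassium channel gene. The filter at log2 6 in at least 3 arrays left 29 genes, of which 3 passed for NF1 RNAi against Control RNAi, 3 for NF1 RNAi + U0126 against NF1 RNAi and 7 for NF1 RNAi + U0126 against Control RNAi (37.7%, 20.7% and 48.4% of all genes so filtered), with fewer genes tested. It added Kcnj13 for NF1 RNAi + U0126 against NF1 RNAi, and Kcne3 and Kcnn1 for NF1 RNAi + U0126 against Control RNAi. Array weights gave 15 for NF1 RNAi against Control RNAi, 12 for NF1 RNAi + U0126 against NF1 RNAi and 17 for NF1 RNAi + U0126 against Control RNAi (42.1%, 22.9% and 49.5% of all genes), with the iteration for the weights stopping before its tolerance. Median centring gave 16 for NF1 RNAi + U0126 against Control RNAi. Adjusting over all probe sets gave 3 for NF1 RNAi against Control RNAi (24.6% of all genes). The cause was not tested for these 3 settings. At an adjusted p under 0.01, 1 gene passed for NF1 RNAi against Control RNAi, 1 for NF1 RNAi + U0126 against NF1 RNAi and 5 for NF1 RNAi + U0126 against Control RNAi (14.9%, 6.36% and 23.2% of all genes). With a 2-fold limit in limma, 0 passed for NF1 RNAi against Control RNAi (12 at an unadjusted p under 0.05 with no fold limit), 1 for NF1 RNAi + U0126 against NF1 RNAi (Kcnd3) and 1 for NF1 RNAi + U0126 against Control RNAi (Kcnn3), where 3.69%, 1.98% and 6.15% of all genes passed. Leaving out 1 array at a time gave 2 to 5 for NF1 RNAi against Control RNAi, 1 to 6 for NF1 RNAi + U0126 against NF1 RNAi and 6 to 9 for NF1 RNAi + U0126 against Control RNAi, and 7 of the 17 calls held in all such fits. The share of all genes passing in those fits ran from 19.6% to 26.4%, 7.81% to 18.2% and 28.9% to 35.8% in the same order. No tested scaling moved the median log2 fold change of all genes by over 0.1. Median centring moved it from 0.02 to 0.08 for NF1 RNAi against Control RNAi. For NF1 RNAi + U0126 against Control RNAi it moved from 0.04 to 0.12. These shifts are not small beside the median absolute changes of the potassium channel genes, 0.10 and 0.11. Probe sets near the low end of the arrays limit what can be seen of the 46 genes under log2 6.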
